A study of Mus musculus with 9 samples.

Results

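Lysosomes digest what cells take up, and the genes described are those for 3 of their working parts: the proton pump that makes them acid (the V-ATPase), the cathepsins, which are proteases active at acid pH, and the Lamp glycoproteins of the lysosome membrane. Members were taken by gene symbol, as every V-ATPase subunit (Atp6v0 and Atp6v1), the accessory subunits Atp6ap1 and Atp6ap2, every cathepsin whose name ends in a letter, and Lamp1 to Lamp3. The rule found 45 of the 54146 genes in the deposited table, made up of 24 pump genes, 18 cathepsins and 3 Lamp genes. A further match, the pseudogene Atp6v0c-ps1, was left out by its name.

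RNA was sequenced from eosinophils, granulocytes of type 2 inflammation, that were sorted from the quadriceps muscle of adult mice as live CD45+ Siglec-F+ cells lacking CD11c, Gr1 and MHC class II. There were 3 groups of 3 libraries, which the design text calls biological replicates: mdx_IL5Tg, mice with both the mdx background and an interleukin-5 transgene (S1 to S3); mdx, dystrophin-deficient mice that model Duchenne muscular dystrophy (S4 to S6); and IL5Tg, mice with the interleukin-5 transgene (S7 to S9). Each of the 9 samples carries mdx as its strain label, also those titled IL5Tg; the groups follow the titles, and the promoter that drives the transgene is not given in the sources used here. No group lacked both features, and by the titles mdx differs from IL5Tg in both at once.

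The V-ATPase is a rotary machine whose peripheral domain, built of the Atp6v1 subunits, splits ATP and whose membrane domain, built of the Atp6v0 subunits, moves protons into the lysosome. Most cathepsins are made as inactive precursors and become active in that acid compartment, where they degrade proteins and trim antigens. The granules of eosinophils are counted among the lysosome-related organelles.

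Total counts ranged from 26752780 to 58368283 per library, and levels below are CPM (each gene's count relative to its library's total) scaled with edgeR's TMM factors. These factors were 0.867 to 0.918 in mdx_IL5Tg, 1.02 to 1.15 in mdx and 1.00 to 1.08 in IL5Tg. A lower factor gives a higher CPM, so whether mdx_IL5Tg libraries lie above others in CPM depends in part on this scaling. The transgene's own gene, Il5, lay at 664 to 724 CPM in mdx_IL5Tg, 0.265 to 0.402 CPM in mdx and 317 to 523 CPM in IL5Tg. Siglecf, the gene of the sorting marker, lay at 449 to 584 CPM in mdx_IL5Tg, 129 to 177 CPM in mdx and 330 to 394 CPM in IL5Tg, and the eotaxin receptor Ccr3 at 1310.3 to 1441 CPM, 809 to 1134 CPM and 827 to 1064 CPM in the same groups. A list of 12 eosinophil genes with both summed to 7194 to 7859 CPM in mdx_IL5Tg and 3331 to 4026 CPM in mdx. For IL5Tg these genes summed to 17325 CPM in S7, 7356 CPM in S8 and 10001 CPM in S9. In mdx against IL5Tg 0 of them were higher and 7 lower (edgeR quasi-likelihood test, adjusted p under 0.05). In mdx_IL5Tg 3 were higher and 0 lower against mdx, and 0 were higher and 0 lower against IL5Tg. The library mdx S5 had 0.383% of its counts on mitochondrial genes, against 1.28% to 2.29% in the other 8. Of a list of 20 macrophage genes, 8 were higher and 0 lower in mdx_IL5Tg against IL5Tg, 1 higher and 17 lower in mdx_IL5Tg against mdx, and 16 higher and 0 lower in mdx against IL5Tg (edgeR quasi-likelihood test, adjusted p under 0.05). All 20 summed to 2629 to 2813 CPM in mdx_IL5Tg, 1989 to 2935 CPM in mdx and 1632 to 2002 CPM in IL5Tg, so mdx_IL5Tg and mdx overlapped. Adgre1, which eosinophils also express, was the gene higher in mdx_IL5Tg against mdx. Without Adgre1 the list summed to 374 to 572 CPM in mdx_IL5Tg, 907 to 1745 CPM in mdx and 243 to 269 CPM in IL5Tg. Without Csf1r too, the sums were 67.5 to 240.01 CPM, 576 to 1333 CPM and 39.0 to 54.4 CPM in the same groups. The gap between mdx and the other groups thus depends on which genes are summed. None of the 20 genes was at 0 in a whole group. Of 12 muscle fibre genes, 11 were tested, and 5 were higher and 0 lower, 1 higher and 8 lower, and 10 higher and 1 lower in those 3 comparisons. Over all tested genes, the shares were 4.35% higher and 2.87% lower, 10.1% and 11.5%, and 11.8% and 8.96% in the same order. These shares also apply to the marker lists below. Without Neb the muscle fibre genes summed to 26.2 to 32.4 CPM in mdx_IL5Tg, 82.5 to 169 CPM in mdx and 9.17 to 12.9 CPM in IL5Tg. Neb, the gene of nebulin, ran against the rest with 344 to 646 CPM in mdx_IL5Tg, 44.1 to 83.4 CPM in mdx and 294 to 664 CPM in IL5Tg. The part of these cells or their RNA in the results below was not tested, and in sorted bulk RNA fewer cells of a type and less RNA per cell cannot be told apart.

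Of the 45 members, 35 passed the filter on low counts: 20 pump genes, 13 cathepsins, and Lamp1 and Lamp2. The other 10 were barely seen or not seen. Atp6v1b1, Atp6v1c2, Atp6v1e2 and Atp6v1g3, alternative subunits known from kidney, lung or testis, had 0 counts in all 9 libraries, where 3 counts correspond to 0.0593 to 0.112 CPM. The same held for Ctsj, Ctsm, Ctsq and Ctsr, cathepsins of the mouse placenta whose genes lie together at chr13:61000179-61541839 (GRCm38). Ctsw, a cathepsin of cytotoxic lymphocytes, had 0 to 10 counts per library, and Lamp3, a marker of mature dendritic cells, 0 to 6 counts.

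To compare genes with each other, levels were divided by the length of all annotated exons of a gene merged, 2351 bases for Ctsd and 9552 for Lamp2. This length can exceed that of the transcripts present, so the order of genes is approximate. Per kilobase of exon the aspartic protease Ctsd had the highest level of all members in each group. It averaged 1044 ± 190.1 CPM per kb in mdx_IL5Tg, 594 ± 37.0 in mdx and 649 ± 176 in IL5Tg (SD, n = 3 each). Next in mdx_IL5Tg came Lamp1 (188 ± 20.5 CPM per kb), the pump subunit Atp6v0d1 (163 ± 11.0), Lamp2 (127 ± 12.3), Atp6ap1 (121 ± 7.88) and Ctsh (98.1 ± 5.43), of which Lamp1 and Atp6v0d1 lay within the sum of their SDs, as did Lamp2 and Atp6ap1. In mdx the next means were those of Lamp1 (129 ± 22.9 CPM per kb), Ctss (104 ± 46.7), Ctsz (91.7 ± 20.0), Ctsb (87.6 ± 30.5) and Atp6v0d1 (78.6 ± 10.2). Neighbours in this order did not differ beyond their spread, and in mdx S6 all 3 of these cathepsins lay below Atp6v0d1. In IL5Tg the order after Ctsd was Lamp2 (123 ± 13.7 CPM per kb), Lamp1 (121 ± 7.55), Atp6v0d1 (115 ± 13.3), Atp6ap1 (88.0 ± 10.5) and Ctsh (82.8 ± 7.19), with the first 3 of these within their spread, and Atp6ap1 and Ctsh within theirs. Ctss averaged 15.8 ± 9.33 CPM per kb in mdx_IL5Tg and 0.753 ± 0.443 in IL5Tg.

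**Figure D1:**
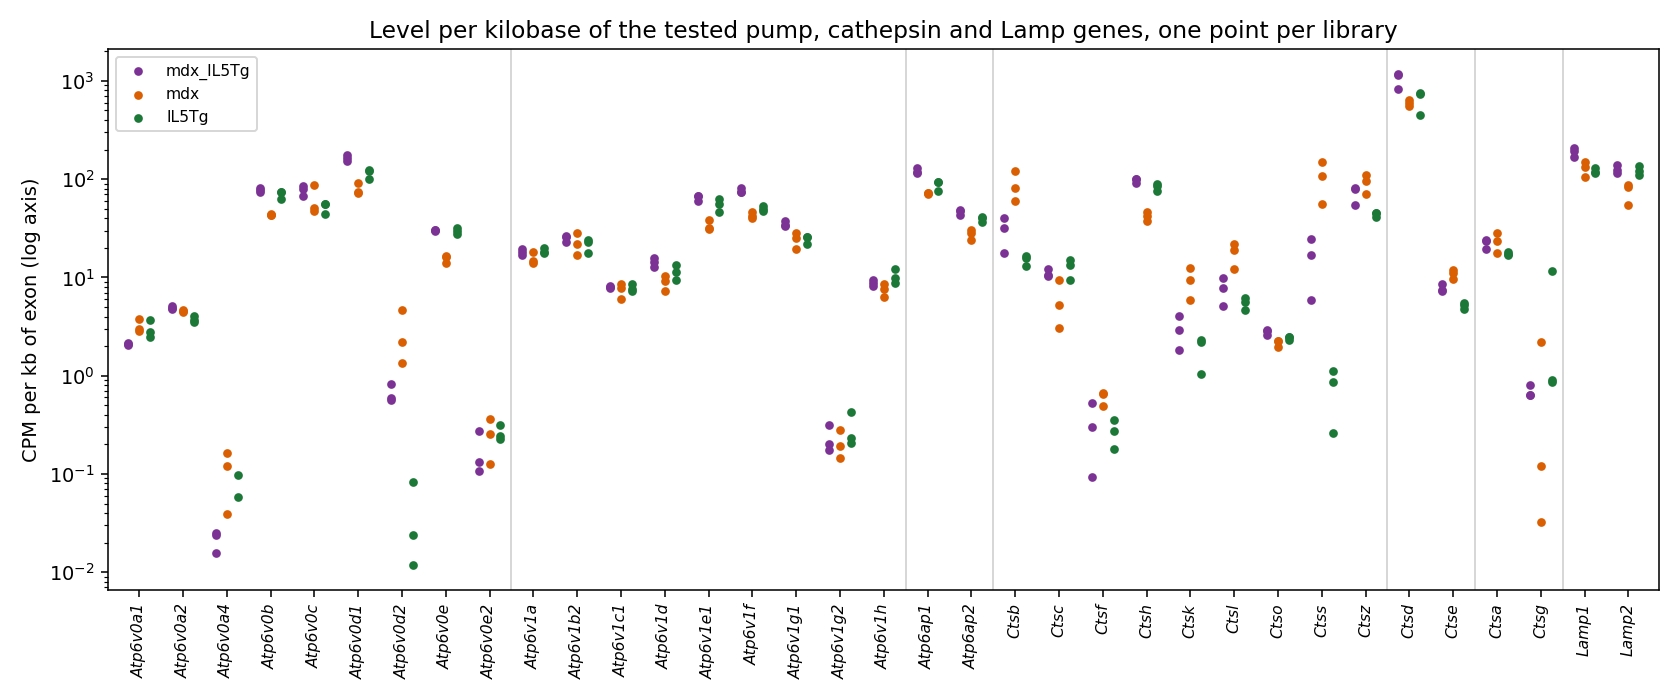
Level of each of the 35 tested members in CPM per kilobase of exon on a log axis, with 1 point per library and the 3 groups side by side within each gene (mdx_IL5Tg, mdx, IL5Tg from left to right); vertical lines part the membrane domain, peripheral domain, accessory subunits, cysteine, aspartic and serine cathepsins, and Lamp genes. Ctsd lies above the other members in every library, the levels of Ctss, Ctsb, Ctsk and Atp6v0d2 are highest in the 3 mdx libraries, and the 1 library of Atp6v0a4 with 0 counts (IL5Tg S7) has no point.

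Calls among the pump genes were mostly rises in mdx_IL5Tg against mdx and mostly falls in mdx against IL5Tg, and calls among the cathepsins mostly the opposite. In mdx_IL5Tg against mdx, 13 of 35 members were higher (37.1%, against 10.1% of all 15886 tested genes) and 7 were lower (20.0%, against 11.5%; in either direction 21.6% of all genes). The 20 pump genes gave 9 of the rises and 2 of the falls, the 13 cathepsins 2 rises and 5 falls, and both Lamp genes were higher. In mdx against IL5Tg, 7 of 35 were higher (20.0%, against 11.8% of all genes) and 8 lower (22.9%, against 8.96%; in either direction 20.8%), of which the pump gave 1 rise and 5 falls, the cathepsins 6 rises and 2 falls, and the Lamp genes 1 fall. In mdx_IL5Tg against IL5Tg, 6 of 35 were higher (17.1%, against 4.35%) and 0 lower (against 2.87%; in either direction 7.22%), made up of 2 pump genes, 3 cathepsins and Lamp1. Beside that 0, 13 members were higher and 1 lower at an unadjusted p under 0.05, and the number lower was 0 by DESeq2, 0 by limma voom and 1 by voom with quality weights. The share of all tested genes at that unadjusted threshold was not counted, so the unadjusted counts cannot be read as a result about the members. The 3 comparisons share libraries, so a gene that stands apart in 1 group can appear in 2 of them. In all, 22 of the 35 passed in at least 1 comparison and 13 in none.

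All 3 libraries of mdx_IL5Tg lay above all 3 of mdx for 16 members and below for 8, against 18.8% and 23.2% of all tested genes. The counts for mdx against IL5Tg were 9 above and 12 below (22.2% and 19.7% of all genes), and for mdx_IL5Tg against IL5Tg 18 above and 2 below (19.4% and 16.4%). Median log2 fold changes of the members were 0.24 in mdx_IL5Tg against IL5Tg (all tested genes -0.05), 0.22 in mdx_IL5Tg against mdx (all -0.13) and -0.08 in mdx against IL5Tg (all 0.01). With library totals in place of TMM factors the median of all genes moved to -0.27, -0.46 and 0.12. The pump's median in mdx_IL5Tg against mdx, 0.27 with TMM factors, was then -0.04 and that of all members -0.11, and the members' median in mdx against IL5Tg turned to 0.02. With these totals 8 members were higher in mdx_IL5Tg against mdx in place of 13 (Atp6v1d, Atp6v1g1, Ctsd, Lamp1 and Lamp2 lost the call) and 2 were higher in mdx_IL5Tg against IL5Tg in place of 6 (Atp6v1f, Lamp1, Ctse and Ctsz lost it), while Lamp2 and Ctsc lost theirs in mdx against IL5Tg.

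**Figure D2:**
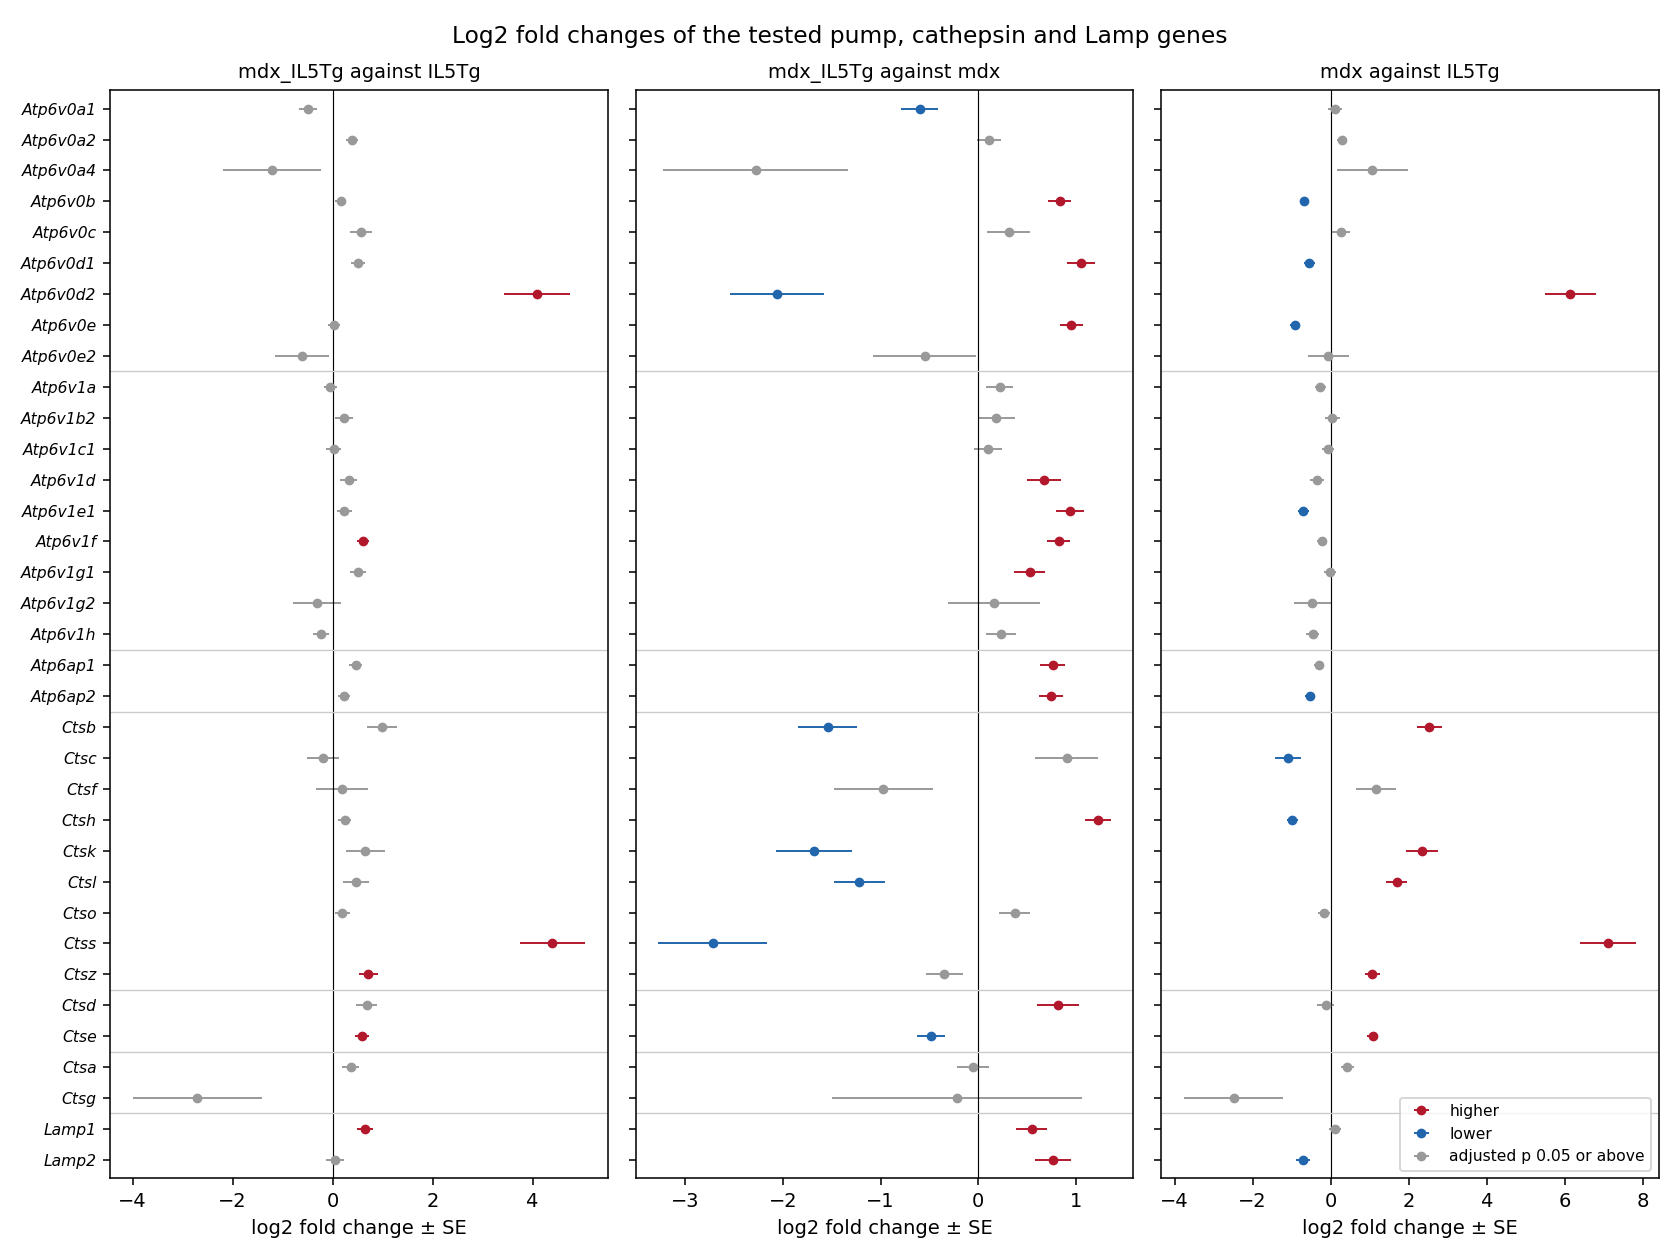
Log2 fold change of each tested member with its standard error (horizontal bar) in the 3 comparisons, red where higher and blue where lower at an edgeR adjusted p under 0.05, grey otherwise; each panel has its own axis. In mdx_IL5Tg against mdx most coloured pump genes lie right of 0 (9 higher, 2 lower) and most coloured cathepsins left of it (2 higher, 5 lower), and in mdx against IL5Tg the cathepsins have 6 higher and 2 lower and the pump 1 higher and 5 lower.

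Many lysosome genes are known to carry the E-box CACGTG near their start, the core of the element that the MiT/TFE transcription factors bind, so the promoters of members that moved together were read. RefSeq promoters (GRCm38.p6, 250 bases before to 50 after the start) were matched by symbol for 35 of the 45 members; the other 10, among them Atp6v0d2, Ctsb, Ctse and Ctsh, are named only. CACGTG, which reads the same on both strands, was in the promoters of 9 of these 35 genes (25.7%), against 8.09% of all 27025 genes and 7.15% of all 32851 promoters. The longer TCACGTGA, also the same on both strands and holding the shorter motif, was in 5 of 35 (14.3%), against 1.12% of all genes. Among members higher in mdx_IL5Tg against mdx, 5 of the 11 with a promoter entry held CACGTG, among those lower 1 of 4 (Ctsl), and among those not past the threshold 3 of 11. Over all 26 tested members with an entry it was 9 (34.6%). Shown are those 5 rising members, with each CACGTG or TCACGTGA in capitals, and then Ctsk and Ctss, neighbours on chromosome 3 with 17423 bases between them that were both lower, whose windows hold none. They run 5′ to 3′ along the gene: Atp6v0b at chr4:117887280-117887579 (minus strand), Atp6v0d1 at chr8:105566015-105566314 (minus), Atp6v0e at chr17:26676146-26676445 (plus), Ctsd at chr7:142387778-142388077 (minus), Lamp1 at chr8:13158911-13159210 (plus), Ctsk at chr3:95498960-95499259 (plus) and Ctss at chr3:95526536-95526835 (plus).
Atp6v0b: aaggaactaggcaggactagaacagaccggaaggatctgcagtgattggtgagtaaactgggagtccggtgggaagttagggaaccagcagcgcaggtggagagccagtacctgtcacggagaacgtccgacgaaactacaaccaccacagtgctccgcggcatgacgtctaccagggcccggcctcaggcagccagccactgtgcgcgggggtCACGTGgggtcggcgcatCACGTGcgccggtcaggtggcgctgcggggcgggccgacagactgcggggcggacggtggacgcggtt
Atp6v0d1: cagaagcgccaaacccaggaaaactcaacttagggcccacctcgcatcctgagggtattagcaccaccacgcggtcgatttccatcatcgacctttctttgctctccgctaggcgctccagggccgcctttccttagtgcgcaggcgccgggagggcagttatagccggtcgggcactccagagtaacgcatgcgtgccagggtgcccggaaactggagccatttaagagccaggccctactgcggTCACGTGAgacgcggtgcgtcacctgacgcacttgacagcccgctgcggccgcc
Atp6v0e: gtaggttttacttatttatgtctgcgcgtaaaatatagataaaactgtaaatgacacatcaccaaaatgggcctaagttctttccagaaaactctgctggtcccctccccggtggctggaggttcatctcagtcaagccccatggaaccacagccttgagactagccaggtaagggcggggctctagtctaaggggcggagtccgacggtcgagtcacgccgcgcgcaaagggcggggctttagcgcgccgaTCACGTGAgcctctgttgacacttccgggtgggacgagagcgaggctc
Ctsd: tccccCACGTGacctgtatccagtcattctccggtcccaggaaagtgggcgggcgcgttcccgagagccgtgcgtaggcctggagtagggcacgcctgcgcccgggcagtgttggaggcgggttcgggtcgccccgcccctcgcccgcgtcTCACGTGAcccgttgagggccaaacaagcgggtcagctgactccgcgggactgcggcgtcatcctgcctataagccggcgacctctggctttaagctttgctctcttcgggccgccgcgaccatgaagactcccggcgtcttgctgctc
Lamp1: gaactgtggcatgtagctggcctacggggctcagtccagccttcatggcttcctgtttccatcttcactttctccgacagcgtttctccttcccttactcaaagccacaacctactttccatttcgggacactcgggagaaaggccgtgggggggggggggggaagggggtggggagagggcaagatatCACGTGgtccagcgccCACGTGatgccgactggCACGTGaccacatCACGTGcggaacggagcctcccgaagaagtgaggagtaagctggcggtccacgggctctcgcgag
Ctsk: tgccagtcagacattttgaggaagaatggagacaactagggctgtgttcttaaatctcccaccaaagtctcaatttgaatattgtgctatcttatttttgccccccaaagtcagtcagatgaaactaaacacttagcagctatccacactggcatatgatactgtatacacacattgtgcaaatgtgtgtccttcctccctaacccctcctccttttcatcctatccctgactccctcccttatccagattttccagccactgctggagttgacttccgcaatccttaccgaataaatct
Ctss: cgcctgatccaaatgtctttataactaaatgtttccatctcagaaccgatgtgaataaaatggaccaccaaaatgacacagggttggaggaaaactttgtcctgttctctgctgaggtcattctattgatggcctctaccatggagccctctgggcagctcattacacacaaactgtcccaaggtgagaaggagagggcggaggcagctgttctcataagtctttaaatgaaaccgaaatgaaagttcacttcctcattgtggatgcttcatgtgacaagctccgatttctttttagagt
The motif began at -36 and -18 from the RefSeq start in Atp6v0b, at -3 in Atp6v0d1, at 3 in Atp6v0e, and at -245 and -98 in Ctsd. A match of letters is a description and not a site shown to be used, and a window without one says nothing about the factors. Atp6v1a and Ctsa held TCACGTGA too and passed the threshold in no comparison. The windows printed were picked by call and motif, so they cannot show that the motif goes with direction. Not printed are Atp6ap1, Atp6ap2, Atp6v1d, Atp6v1e1, Atp6v1f and Lamp2, which rose in mdx_IL5Tg against mdx and hold no CACGTG. Ctsl, which fell there and holds CACGTG at -236, is not printed either.

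Within the membrane domain of the pump, 3 subunits shared a pattern of low levels in mdx. Atp6v0b, a subunit of the proton-carrying ring, had 168, 151 and 159 CPM in mdx_IL5Tg, 89.5, 87.9 and 91.2 CPM in mdx, and 128, 150.0 and 150.3 CPM in IL5Tg. Every mdx library was below every library of both other groups. The gene was higher in mdx_IL5Tg against mdx (log2 0.83 ± 0.12 SE, adjusted p = 0.0011) and lower in mdx against IL5Tg (-0.67 ± 0.12, adjusted p = 0.0029). Atp6v0e, a small subunit of the same domain, had 112, 110.3 and 113 CPM in mdx_IL5Tg, 61.1, 52.2 and 60.1 CPM in mdx, and 109, 118 and 102 CPM in IL5Tg. The mdx libraries again stood alone below the rest, while mdx_IL5Tg and IL5Tg overlapped. The log2 differences were 0.95 ± 0.12 in mdx_IL5Tg against mdx (adjusted p = 0.00048), -0.92 ± 0.12 in mdx against IL5Tg (adjusted p = 0.00053) and 0.03 ± 0.12 in mdx_IL5Tg against IL5Tg (adjusted p = 0.91).

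The stalk subunit d, which couples the ring to the peripheral domain, has a general form, Atp6v0d1, and a second form, Atp6v0d2, known from osteoclasts, macrophages and kidney, and these moved in opposite directions. Atp6v0d1 had 312, 293 and 272 CPM in mdx_IL5Tg, 129, 162 and 132 CPM in mdx, and 179, 215 and 224 CPM in IL5Tg. Its 3 groups did not overlap, with a rise in mdx_IL5Tg against mdx (1.05 ± 0.14, adjusted p = 0.00086) and a fall in mdx against IL5Tg (-0.55 ± 0.14, adjusted p = 0.020); the second call was lost without mdx S4 or S6 or IL5Tg S8 or S9 (adjusted p = 0.060 to 0.076). Atp6v0d2 (chr4:19876841-19922605) had 1.62, 2.22 and 1.54 CPM in mdx_IL5Tg, 12.7, 3.65 and 5.96 CPM in mdx, and 0.032, 0.0649 and 0.224 CPM in IL5Tg, where these were 1, 2 and 6 counts. Its groups did not overlap either, in the reverse order. It was higher in mdx against IL5Tg (6.14 ± 0.66, adjusted p = 0.00019) and in mdx_IL5Tg against IL5Tg (4.08 ± 0.66, adjusted p = 0.0097), and lower in mdx_IL5Tg against mdx (-2.06 ± 0.48, adjusted p = 0.014). These sizes rest on few counts: without IL5Tg S9 they were 7.11 in mdx against IL5Tg and 5.17 in mdx_IL5Tg against IL5Tg, and without mdx S4 they were 5.47 in mdx against IL5Tg and -1.34 in mdx_IL5Tg against mdx (adjusted p = 0.082), a call also lost without mdx_IL5Tg S1 (-1.88, adjusted p = 0.070). Per kilobase, Atp6v0d2 made up 0.342% to 0.496% of both d forms in mdx_IL5Tg, 1.47% to 6.13% in mdx and 0.0118% to 0.0658% in IL5Tg, so Atp6v0d1 was the main d transcript in all 9 libraries.

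The large membrane subunit a, which lines the path of the protons, is also made in several forms. Atp6v0a1 had 13.8, 13.5 and 14.2 CPM in mdx_IL5Tg, 25.0, 18.5 and 19.4 CPM in mdx, and 16.2, 24.0 and 18.1 CPM in IL5Tg. It was lower in mdx_IL5Tg against mdx (-0.60 ± 0.19, adjusted p = 0.043), a call lost in 10 of the 18 other settings, among them without any 1 of 8 libraries (adjusted p up to 0.24, without mdx S4). Tcirg1, the a3 form known from osteoclasts, falls outside the naming rule; it had 41.6, 39.3 and 32.6 CPM in mdx_IL5Tg, 52.8, 52.5 and 48.2 CPM in mdx, and 37.8, 32.2 and 34.1 CPM in IL5Tg. It too was lower in mdx_IL5Tg against mdx (-0.44 ± 0.13, adjusted p = 0.040) and higher in mdx against IL5Tg (0.56 ± 0.13, adjusted p = 0.015). The fall was lost in 12 of the 18 other settings, among them without any 1 of the 9 libraries (adjusted p = 0.053 to 0.30). The rise was lost without mdx S4 (adjusted p = 0.060) or IL5Tg S8 (0.081) or S9 (0.082). The other tested membrane subunits passed in no comparison: Atp6v0a2 lay at 23.4 to 34.6 CPM over the 9 libraries, Atp6v0c, the main ring subunit, at 150.5 to 297 CPM with its highest value in mdx S5, Atp6v0a4 at 0 to 0.817 CPM and Atp6v0e2 at 0.257 to 0.858 CPM.

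Of the 9 tested peripheral subunits, 4 were higher in mdx_IL5Tg against mdx and none was lower. Atp6v1e1, part of the peripheral stalk, had 275, 275 and 247 CPM in mdx_IL5Tg, 129, 157 and 130.0 CPM in mdx, and 190.0, 257 and 229.9 CPM in IL5Tg. The mdx libraries lay below all others (0.94 ± 0.15 in mdx_IL5Tg against mdx, adjusted p = 0.0019; -0.70 ± 0.14 in mdx against IL5Tg, adjusted p = 0.0075). Atp6v1f, of the central rotor, had 86.5, 78.0 and 77.9 CPM in mdx_IL5Tg, 44.9, 49.4 and 42.8 CPM in mdx, and 50.5, 52.3 and 57.0 CPM in IL5Tg. It was the 1 peripheral subunit higher in mdx_IL5Tg against both mdx (0.82 ± 0.12, adjusted p = 0.0013) and IL5Tg (0.60 ± 0.12, adjusted p = 0.022), with all 3 mdx_IL5Tg libraries above the other 6. Against IL5Tg the call was lost without mdx_IL5Tg S1 (adjusted p = 0.11), mdx_IL5Tg S2 (0.060) or IL5Tg S7 (0.059).

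Atp6v1d, the rotor's shaft, had 65.3, 72.4 and 58.5 CPM in mdx_IL5Tg, 42.1, 47.5 and 33.6 CPM in mdx, and 43.8, 60.9 and 52.4 CPM in IL5Tg. Its mdx_IL5Tg libraries lay above all mdx libraries (0.67 ± 0.17, adjusted p = 0.019) and overlapped with IL5Tg. Atp6v1g1, a second stalk subunit, had 42.3, 38.9 and 37.6 CPM in mdx_IL5Tg, 28.3, 32.1 and 22.2 CPM in mdx, and 29.0, 24.9 and 29.4 CPM in IL5Tg. It was higher in mdx_IL5Tg against mdx (0.53 ± 0.16, adjusted p = 0.037), but not without mdx_IL5Tg S1 (adjusted p = 0.089), mdx S4 (0.065) or mdx S6 (0.074). The catalytic subunit Atp6v1a, which splits ATP, and its partner Atp6v1b2 showed no call. Atp6v1a lay at 84.2 to 121 CPM over the 9 libraries and Atp6v1b2 at 89.5 to 149 CPM. Atp6v1c1 (33.7 to 48.4 CPM), Atp6v1h (61.7 to 120.0 CPM) and the neuronal form Atp6v1g2 (0.368 to 1.08 CPM) did not pass the threshold either.

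Both accessory subunits, which help the pump to assemble and reach its membrane, were higher in mdx_IL5Tg against mdx. Atp6ap1 had 394, 351 and 355 CPM in mdx_IL5Tg, 217, 212 and 221 CPM in mdx, and 229.7, 284 and 285 CPM in IL5Tg. All mdx_IL5Tg libraries were above all others, and the log2 difference was 0.76 ± 0.13 against mdx (adjusted p = 0.0029) and 0.46 ± 0.13 against IL5Tg (adjusted p = 0.052, not past the threshold). Atp6ap2, also known as the prorenin receptor, had 127, 123 and 114 CPM in mdx_IL5Tg, 74.4, 78.7 and 63.1 CPM in mdx, and 107, 96.5 and 108 CPM in IL5Tg. This was a rise in mdx_IL5Tg against mdx (0.75 ± 0.12, adjusted p = 0.0028) and a fall in mdx against IL5Tg (-0.52 ± 0.12, adjusted p = 0.014). Summed over its 24 genes, the pump came to 2307, 2184 and 2069 CPM in mdx_IL5Tg, 1399, 1594 and 1288 CPM in mdx, and 1592, 1898 and 1851 CPM in IL5Tg. In TMM-scaled CPM the mdx_IL5Tg sums were above the other 6, and the highest mdx sum (S5) was just above the lowest IL5Tg sum (S7). The TMM factors were lowest in mdx_IL5Tg, and the sums were not compared on library totals.

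**Figure D3:**
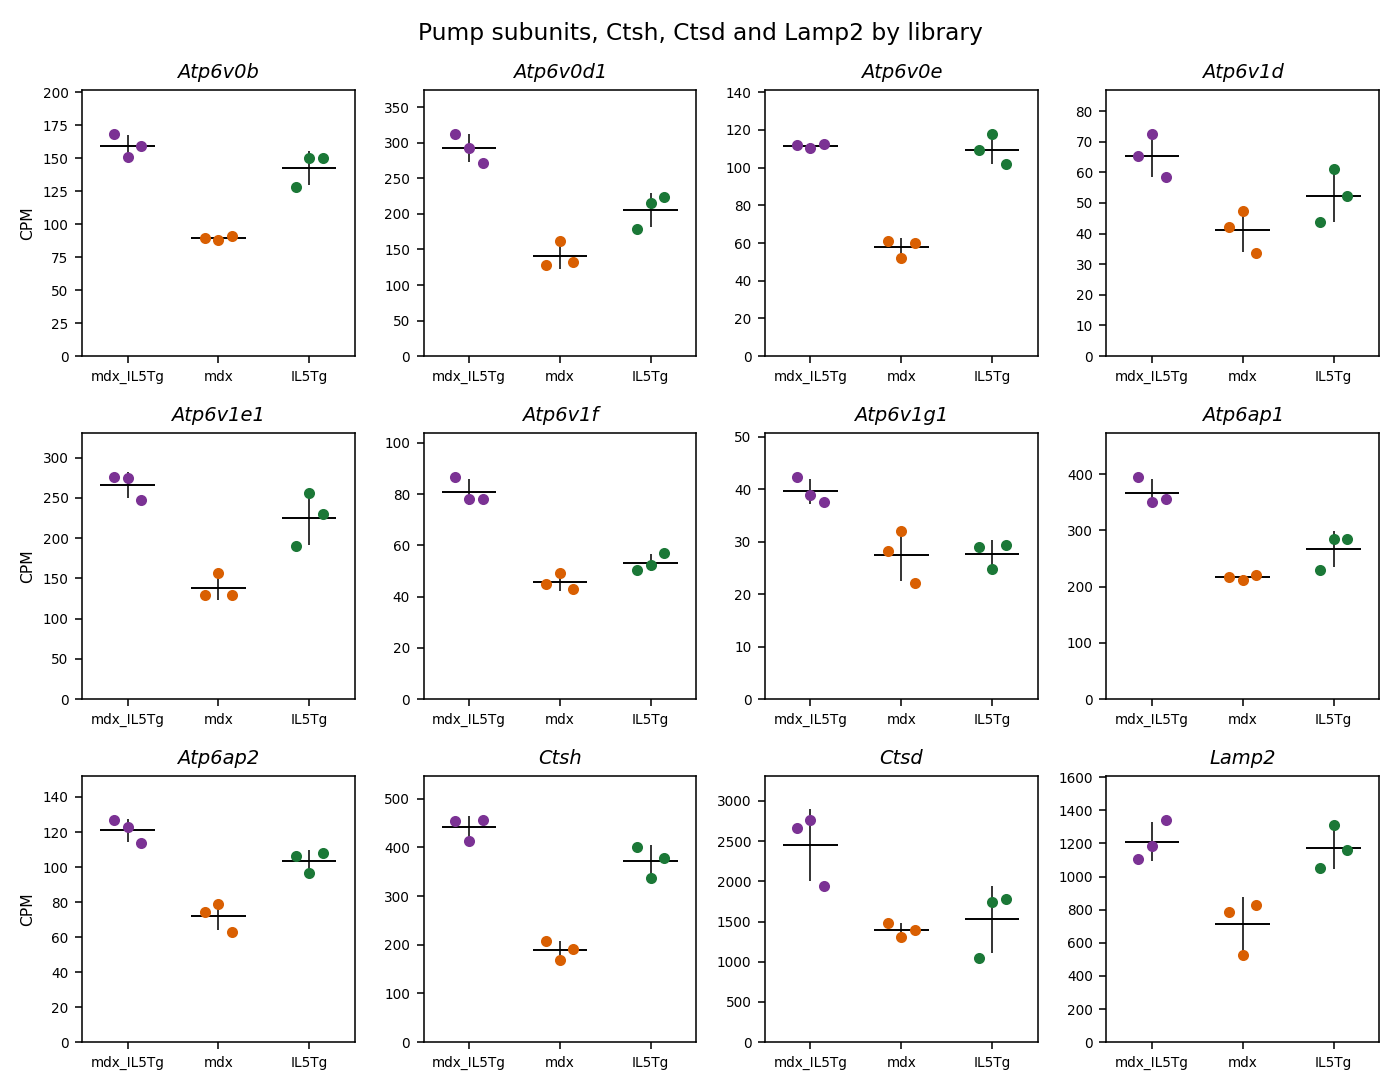
CPM in each library for 9 pump genes, Ctsh, Ctsd and Lamp2, with 1 point per library, the group mean as a horizontal line and its SD as a vertical line (n = 3 per group); each panel starts at 0 and has its own axis. In all 12 panels the 3 mdx_IL5Tg libraries lie above the 3 mdx libraries, as for Atp6v0e with 110.3 to 113 CPM in mdx_IL5Tg and 52.2 to 61.1 CPM in mdx.

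Among the cysteine cathepsins, Ctss, which cleaves the invariant chain during antigen presentation by class II molecules, had the widest range of all members between groups. Ctss (chr3:95526786-95556403) had 23.1, 33.1 and 7.94 CPM in mdx_IL5Tg, 202, 145 and 75.3 CPM in mdx, and 1.18, 0.357 and 1.53 CPM in IL5Tg. No group overlapped with another. It was higher in mdx_IL5Tg against IL5Tg (4.40 ± 0.66, adjusted p = 0.0097), lower in mdx_IL5Tg against mdx (-2.72 ± 0.56, adjusted p = 0.0092) and higher in mdx against IL5Tg (7.12 ± 0.72, adjusted p = 0.00022), and all 3 calls held in each of the 18 other settings. C1qb, a complement gene of macrophages named here after its values were seen, had 11.2, 15.5 and 2.38 CPM in mdx_IL5Tg, 63.2, 43.1 and 29.4 CPM in mdx, and 1.12, 0.422 and 1.53 CPM in IL5Tg. Of the 20 macrophage genes, 4 (C1qb, Mrc1, Gpnmb and Spp1) had their libraries in the order of Ctss within each of the 3 groups, as did 0.812% of all tested genes. The other genes did not: C1qa and C1qc had that order in 2 groups, and Adgre1, Csf1r and Lyve1 in 0. In IL5Tg the order rests on 11 to 41 counts of Ctss per library. C1qb was picked with its values known, so its match is a description and not a test. Ctss divided by C1qb gave 2.07 to 3.34 in mdx_IL5Tg, 2.56 to 3.38 in mdx and 0.846 to 1.06 in IL5Tg. Of 10 tested class II and dendritic cell genes, 5 were higher and 0 lower in mdx_IL5Tg against IL5Tg, 1 higher and 2 lower in mdx_IL5Tg against mdx, and 6 higher and 0 lower in mdx against IL5Tg. The 4 class II genes H2-Aa, H2-Ab1, H2-Eb1 and Cd74 summed to 28.9 to 131 CPM in mdx_IL5Tg, 161 to 249 CPM in mdx and 6.59 to 18.02 CPM in IL5Tg, in cells sorted as negative for MHC class II. Itgax, the gene of CD11c, for which the sort was also negative, had 190 to 259 CPM in mdx_IL5Tg, 102 to 138 CPM in mdx and 41.3 to 55.6 CPM in IL5Tg. The part of macrophage or dendritic cell RNA in the level of Ctss was not tested.

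Ctsb and Ctsl, broadly expressed proteases that degrade most lysosomal cargo, were high in mdx too. Ctsb had 195, 245 and 107 CPM in mdx_IL5Tg, 729.6, 495 and 366 CPM in mdx, and 101, 80.0 and 95.1 CPM in IL5Tg. Its groups did not overlap, with mdx_IL5Tg in between. It was lower in mdx_IL5Tg against mdx (-1.54 ± 0.30, adjusted p = 0.0064) and higher in mdx against IL5Tg (2.53 ± 0.31, adjusted p = 0.00047). In mdx_IL5Tg against IL5Tg the difference was 0.99 ± 0.30 (adjusted p = 0.068), and past the threshold without mdx_IL5Tg S3 (1.32, adjusted p = 0.0086). Ctsl had 50.4, 64.0 and 33.3 CPM in mdx_IL5Tg, 142, 123 and 78.5 CPM in mdx, and 39.9, 30.0 and 36.5 CPM in IL5Tg. The mdx libraries were the 3 highest (-1.22 ± 0.26 in mdx_IL5Tg against mdx, adjusted p = 0.0089; 1.69 ± 0.26 in mdx against IL5Tg, adjusted p = 0.0017), and mdx_IL5Tg S3 overlapped with IL5Tg.

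Ctsk, the collagen-degrading cathepsin of osteoclasts, lies at chr3:95499256-95509362 beside Ctss. It had 2.77, 6.07 and 4.36 CPM in mdx_IL5Tg, 18.9, 14.3 and 8.99 CPM in mdx, and 3.30, 1.56 and 3.50 CPM in IL5Tg. All mdx libraries were above the other 6, which overlapped. It was lower in mdx_IL5Tg against mdx (-1.68 ± 0.39, adjusted p = 0.013), a call lost without mdx_IL5Tg S1 (-1.33, adjusted p = 0.069) or mdx S4 (-1.34, adjusted p = 0.060), and higher in mdx against IL5Tg (2.34 ± 0.40, adjusted p = 0.0027). In a list of 8 osteoclast genes without Ctsk and Atp6v0d2, Mmp9, Itgb3, Nfatc1 and Acp5 made up nearly all of the sum. Ocstamp, Dcstamp, Calcr and Oscar together came to 0.261 to 0.78 CPM in mdx_IL5Tg, 0.892 to 1.05 CPM in mdx and 0 to 0.32 CPM in IL5Tg. Of the list's 6 tested genes, 2 were higher in mdx_IL5Tg against IL5Tg, 1 (Acp5) in mdx_IL5Tg against mdx and 3 in mdx against IL5Tg, and none was lower. Oscar had 0 counts in all mdx_IL5Tg and IL5Tg libraries and Dcstamp in all IL5Tg libraries.

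Ctsz, a carboxypeptidase, had 115, 118 and 78.9 CPM in mdx_IL5Tg, 137, 158 and 101 CPM in mdx, and 65.0, 59.4 and 65.6 CPM in IL5Tg. The IL5Tg libraries lay below the other 6. Ctsz was higher in mdx against IL5Tg (1.06 ± 0.19, adjusted p = 0.0038) and just past the threshold in mdx_IL5Tg against IL5Tg (0.71 ± 0.19, adjusted p = 0.048), where 11 of the 18 other settings lost the call, removal of any of mdx_IL5Tg S1 or S2, mdx S4, or IL5Tg S7, S8 or S9 among them (adjusted p = 0.056 to 0.18). Ctsh, an aminopeptidase, went the other way. Its levels were 455, 413 and 456 CPM in mdx_IL5Tg, 207, 168 and 191 CPM in mdx, and 402, 338 and 379 CPM in IL5Tg. The 3 groups did not overlap and mdx was far below (1.22 ± 0.13 in mdx_IL5Tg against mdx, adjusted p = 0.00020; -0.98 ± 0.13 in mdx against IL5Tg, adjusted p = 0.00069).

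Ctsc, the dipeptidyl peptidase that activates granule serine proteases, had 61.0, 59.6 and 70.7 CPM in mdx_IL5Tg, 54.1, 17.8 and 30.2 CPM in mdx, and 87.3, 77.1 and 54.4 CPM in IL5Tg. It was lower in mdx against IL5Tg (-1.10 ± 0.33, adjusted p = 0.036). That call was lost in 8 of the 18 other settings: without mdx S5, its lowest library, the difference was -0.79 (adjusted p = 0.064), and it was lost too without mdx S6 (adjusted p = 0.072) or IL5Tg S7 (0.082) or S8 (0.069). The other tested cysteine cathepsins passed in no comparison, Ctso with 9.97 to 14.9 CPM over the 9 libraries and Ctsf with 0.470 to 3.39 CPM.

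The aspartic cathepsins differed from each other. Ctsd had 2665, 2758 and 1942 CPM in mdx_IL5Tg, 1487, 1314 and 1389 CPM in mdx, and 1049, 1747 and 1783 CPM in IL5Tg. In TMM-scaled CPM all mdx_IL5Tg libraries were above the other 6. Ctsd was higher in mdx_IL5Tg against mdx (0.81 ± 0.21, edgeR adjusted p = 0.022), and without mdx_IL5Tg S1 the difference was 0.85 (edgeR adjusted p = 0.062). Against IL5Tg the difference was 0.69 ± 0.21 (adjusted p = 0.072), and without mdx_IL5Tg S3 0.88 (adjusted p = 0.030). Ctse, a non-lysosomal endosomal protease of immune and gastric cells, had 26.9, 23.4 and 23.3 CPM in mdx_IL5Tg, 34.8, 37.6 and 30.6 CPM in mdx, and 14.9, 17.2 and 16.6 CPM in IL5Tg. Its groups did not overlap, and it was past the threshold in all 3 comparisons: 0.59 ± 0.14 in mdx_IL5Tg against IL5Tg (adjusted p = 0.036), -0.48 ± 0.14 in mdx_IL5Tg against mdx (adjusted p = 0.034) and 1.08 ± 0.14 in mdx against IL5Tg (adjusted p = 0.00069). The last call held in each of the 18 other settings, while the call against mdx was lost without any 1 of the 9 libraries (adjusted p = 0.052 to 0.20) and that against IL5Tg without mdx_IL5Tg S1 or S2 or any IL5Tg library (adjusted p = 0.063 to 0.16).

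Neither serine cathepsin passed the threshold. Ctsa, which shields other lysosomal enzymes from breakdown, lay at 79.7 to 135 CPM over the 9 libraries. Ctsg, a protease of neutrophil granules, had 0.652, 0.831 and 0.653 CPM in mdx_IL5Tg, 0.126, 0.0335 and 2.29 CPM in mdx, and 12.1, 0.941 and 0.895 CPM in IL5Tg. The high libraries, mdx S6 and IL5Tg S7, were also those with the highest sum of the neutrophil granule genes Mpo, Elane and Prtn3, which came to 6.99 to 11.1 CPM in mdx_IL5Tg, 1.27 to 40.4 CPM in mdx and 10.9 to 146 CPM in IL5Tg. They belong to a list of 13 tested neutrophil genes, which went both ways. In that list 2 were higher and 0 lower in mdx_IL5Tg against IL5Tg. The counts were 1 and 2 in mdx_IL5Tg against mdx, and 2 and 2 in mdx against IL5Tg.

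**Figure D4:**
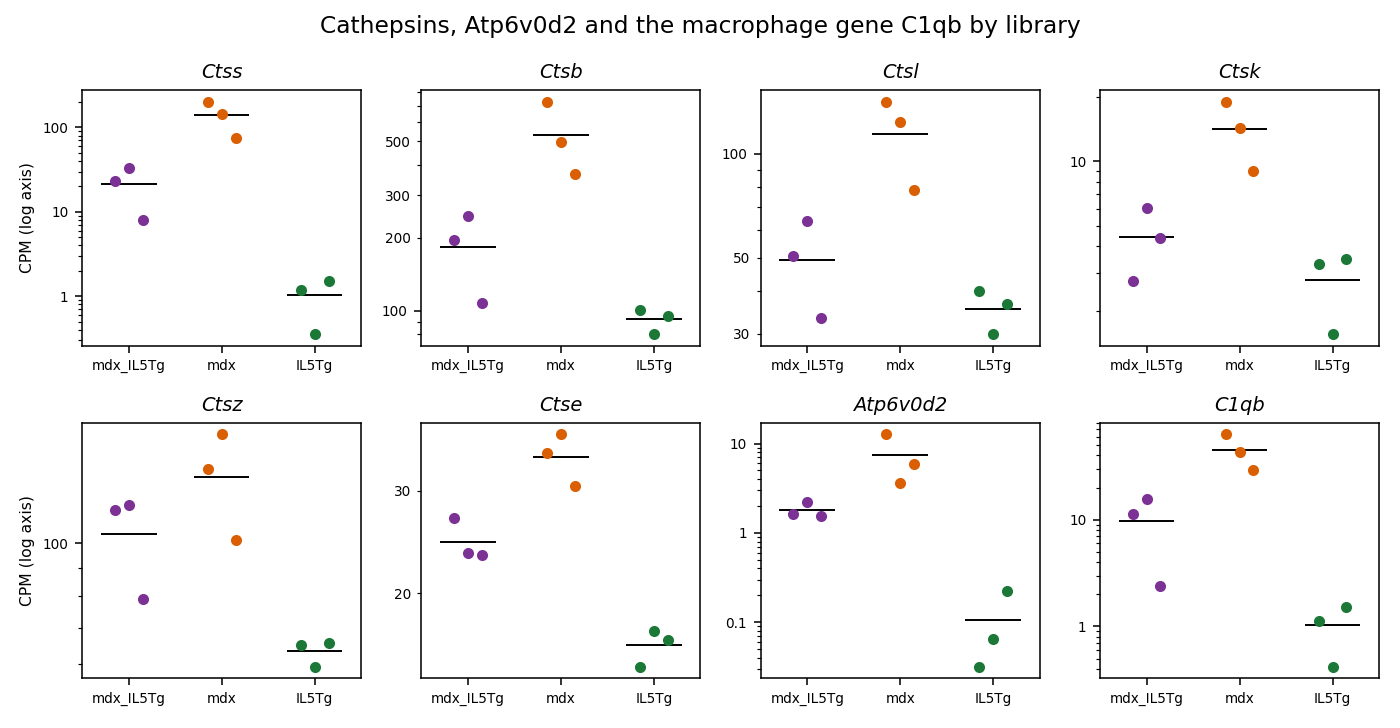
CPM in each library on a log axis for 6 cathepsins, the pump subunit Atp6v0d2 and the macrophage gene C1qb, with 1 point per library and the group mean as a line (n = 3 per group). The 3 mdx libraries have the highest levels of Ctss, Ctsb, Ctsl, Ctsk, Ctse, Atp6v0d2 and C1qb, while for Ctsz mdx_IL5Tg and mdx overlap.

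Lamp1 and Lamp2 coat the inner face of the lysosome membrane and are its most abundant proteins. Lamp1 had 552, 516 and 444 CPM in mdx_IL5Tg, 402, 281 and 354 CPM in mdx, and 315, 307 and 346 CPM in IL5Tg. In TMM-scaled CPM the mdx_IL5Tg libraries were the 3 highest. Lamp1 was higher in mdx_IL5Tg against mdx (0.55 ± 0.15, edgeR adjusted p = 0.030) and against IL5Tg (0.64 ± 0.15, edgeR adjusted p = 0.036). Against mdx this call was lost without mdx_IL5Tg S1 (adjusted p = 0.065) or mdx S5 (0.051), and against IL5Tg without mdx_IL5Tg S1 or S2 or any IL5Tg library (0.063 to 0.14). Lamp2, on chromosome X, had 1108, 1182 and 1339 CPM in mdx_IL5Tg, 788, 524 and 827 CPM in mdx, and 1051, 1312 and 1159 CPM in IL5Tg. Here the mdx libraries stood alone below the other 6, lowest in mdx S5 (0.76 ± 0.18 in mdx_IL5Tg against mdx, adjusted p = 0.015; -0.72 ± 0.18 in mdx against IL5Tg, adjusted p = 0.020).

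Other genes of lysosome function, from lists drawn up by role, were counted in the same fit. Over all 15886 tested genes, 10.1% were higher and 11.5% lower in mdx_IL5Tg against mdx. The shares were 11.8% and 8.96% in mdx against IL5Tg, and 4.35% and 2.87% in mdx_IL5Tg against IL5Tg. Some list counts lie near these shares, as do the 2 higher and 2 lower of 20 MiT/TFE and nutrient-sensing genes in mdx against IL5Tg. No list was tested as a set. Of 41 other lysosomal hydrolases, 13 were higher and 1 lower in mdx_IL5Tg against mdx, 11 higher and 4 lower in mdx against IL5Tg, and 6 higher and 0 lower in mdx_IL5Tg against IL5Tg. Without mdx_IL5Tg S1 or mdx S6 the 13 became 4 or 6, and with 1 library left out the 11 became 3 to 11 and the last 6 became 2 to 11. The 3 with the smallest p went both ways. Gm2a, the activator protein for ganglioside breakdown, had 347, 289.6 and 285 CPM in mdx_IL5Tg, 47.3, 32.3 and 41.9 CPM in mdx, and 238, 266 and 253 CPM in IL5Tg, with mdx far below (2.92 ± 0.17 in mdx_IL5Tg against mdx, adjusted p = 2.8e-06). Lgmn, the asparagine endopeptidase that processes cathepsin precursors, had 39.7, 48.0 and 20.4 CPM in mdx_IL5Tg, 156, 129 and 78.0 CPM in mdx, and 10.6, 10.5 and 11.6 CPM in IL5Tg, with no overlap and mdx highest (-1.75 ± 0.31 in mdx_IL5Tg against mdx, adjusted p = 0.0037). Arsb, a sulfatase, had 105 to 119 CPM in mdx_IL5Tg, 26.8 to 40.3 CPM in mdx and 89.9 to 215 CPM in IL5Tg (1.81 ± 0.28 in mdx_IL5Tg against mdx, adjusted p = 0.0019).

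Cathepsin inhibitors summed to 376 to 439.7 CPM in mdx_IL5Tg, 201 to 230.4 CPM in mdx and 281 to 321 CPM in IL5Tg. Of the 6 tested, 3 were higher and 0 lower in mdx_IL5Tg against mdx, 0 higher and 2 lower in mdx against IL5Tg, and 1 higher and 1 lower in mdx_IL5Tg against IL5Tg. Cst7, or cystatin F, which blocks cathepsin C among others, had 50.9, 42.9 and 51.2 CPM in mdx_IL5Tg, 12.9, 6.93 and 14.1 CPM in mdx, and 34.0, 32.0 and 34.3 CPM in IL5Tg (2.09 ± 0.23 in mdx_IL5Tg against mdx, adjusted p = 0.00024; -1.56 ± 0.23 in mdx against IL5Tg, adjusted p = 0.0012). Cst3, the secreted cystatin C, had 319, 256 and 275 CPM in mdx_IL5Tg, 137, 138 and 124 CPM in mdx, and 201, 174 and 198 CPM in IL5Tg. It was higher in mdx_IL5Tg against mdx (1.09 ± 0.13, adjusted p = 0.00039) and lower in mdx against IL5Tg (-0.52 ± 0.13, adjusted p = 0.018; 0.051 without IL5Tg S9). Its groups did not overlap. Serpinb1a, an inhibitor of neutrophil serine proteases, was lower in mdx_IL5Tg against IL5Tg (-1.50 ± 0.39, adjusted p = 0.045), a call lost in 9 of the 18 other settings.

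Of 20 genes of the MiT/TFE factors and the nutrient-sensing machinery, 4 were higher and 2 lower in mdx_IL5Tg against mdx, 2 higher and 2 lower in mdx against IL5Tg, and 1 higher and 0 lower in mdx_IL5Tg against IL5Tg. Mitf, the factor that gives the family its name, had 2.94, 3.35 and 2.87 CPM in mdx_IL5Tg, 17.4, 15.8 and 15.9 CPM in mdx, and 2.34, 2.73 and 3.32 CPM in IL5Tg. The mdx libraries stood far above the other 6 (-2.42 ± 0.20 in mdx_IL5Tg against mdx, adjusted p = 3.3e-05; 2.55 ± 0.21 in mdx against IL5Tg, adjusted p = 2.8e-05). Tfe3, its relative, had 47.3 to 55.6 CPM in mdx_IL5Tg, 57.6 to 61.7 CPM in mdx and 31.5 to 37.3 CPM in IL5Tg. It was higher in mdx_IL5Tg against IL5Tg (0.52 ± 0.13, adjusted p = 0.037; lost in 7 of the 18 other settings) and in mdx against IL5Tg (0.78 ± 0.13, adjusted p = 0.0020). Fnip1, a partner of folliculin, was higher in mdx_IL5Tg against mdx (0.82 ± 0.16, adjusted p = 0.0066; 0.051 on library totals) and lower in mdx against IL5Tg (-1.23 ± 0.16, adjusted p = 0.00071).

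Lists of the lysosome membrane and of sorting were counted likewise. Of 11 tested pump accessory and assembly genes, 3 were higher and 1 lower in mdx_IL5Tg against mdx, 2 and 2 in mdx against IL5Tg, and none passed in mdx_IL5Tg against IL5Tg (edgeR; 1 higher and 1 lower by voom with quality weights). In mdx_IL5Tg against mdx these became 5 and 3 by voom with quality weights, and 1 and 0 without mdx_IL5Tg S1. Ncoa7, a pump-binding protein, was higher in mdx_IL5Tg against mdx (1.22 ± 0.27, adjusted p = 0.011), a call lost on library totals (0.88, adjusted p = 0.051). Among 13 channel genes there were 2 higher and 2 lower, 3 and 2, and 2 and 0 in the same 3 comparisons. Clcn3, a chloride and proton exchanger, had 83.9, 68.5 and 79.1 CPM in mdx_IL5Tg, 27.0, 29.4 and 30.2 CPM in mdx, and 74.2, 92.4 and 81.5 CPM in IL5Tg, with mdx below the rest (1.42 ± 0.13 in mdx_IL5Tg against mdx, adjusted p = 7.5e-05). Of 21 other membrane proteins, 4 were higher and 3 lower in mdx_IL5Tg against mdx, 4 and 4 in mdx against IL5Tg, and 2 and 0 in mdx_IL5Tg against IL5Tg. Slc15a3, a peptide transporter, was lower in mdx_IL5Tg against mdx (-2.06 ± 0.33, adjusted p = 0.0022) and higher in mdx against IL5Tg (3.86 ± 0.36, adjusted p = 8.0e-05). Among 28 sorting genes the counts were 6 and 2, 4 and 6, and 2 and 1. Sort1, a sorting receptor for lysosomal proteins, was higher in mdx_IL5Tg against mdx (1.07 ± 0.15, adjusted p = 0.0012), and Igf2r, the mannose 6-phosphate receptor that carries new cathepsins to lysosomes, was lower there (-0.90 ± 0.15, adjusted p = 0.0025). With library totals in place of TMM factors the balance of all 7 lists in mdx_IL5Tg against mdx shifted towards lower. There were then 4 higher and 8 lower for the hydrolases, 2 and 1 for the inhibitors, and 1 and 7 for the MiT/TFE and nutrient-sensing genes. The counts were 0 and 2 for the pump accessory and assembly genes, 1 and 3 for the channels, 3 and 5 for the other membrane proteins, and 1 and 8 for sorting. All tested genes shifted too: 22.6% had a positive log2 fold change in this comparison on library totals, against 42.4% with TMM factors. The share of all genes called on library totals was not counted, so the shift cannot be read as particular to the lists.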

How the data were processed

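RNA was sequenced from sorted eosinophils in 9 libraries. The values deposited by the authors are expected counts, without normalisation; cutadapt 2.10, STAR 2.5.3, RSEM 1.3.0, limma and the build mm10 are named in the submitters' processing notes. Their settings, annotation and strand handling were not stated there. Of the values, 6.03% were not whole (tolerance 1e-06) and were rounded. RSEM shares reads that fit several genes by estimation, so levels of close paralogs are uncertain. Columns give the group and an S number, which names the library here.

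A filter on low counts (filterByExpr of edgeR, minimum 10) left 15886 of 54146 genes. All 9 libraries entered 1 fit with edgeR 4.0.16 (TMM factors, robust quasi-likelihood test) in R 4.3.3, with Benjamini-Hochberg adjustment over all tested genes and a threshold of 0.05. Errors of log2 fold changes are standard errors from the F statistic; CPM levels are TMM-scaled, given per library or as mean ± SD. Gene positions and exon lengths come from GENCODE release M21 (GRCm38), and 54079 gene identifiers matched it without their version suffix. Exon length is that of all annotated exons of a gene merged. Scripts were tested on simulated counts.

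Members and gene lists were chosen with earlier results of these data known. Library values were given for each member past the threshold in at least 1 comparison and for the highest per kilobase in each class, the other members by range, and from each further lysosome list genes were taken among the 3 with the smallest p. Alternatives were DESeq2 1.42.0, voom of limma 3.58.1 (plain and with quality weights), scaling by RLE factors or by library totals, no filter or one of 50 counts in 3 libraries, a fit of the compared groups alone, removal of each library in turn and of IL5Tg S7 together with mdx S5, 18 settings in all.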

Additional observations from a re-analysis of the deposited data

How the results depend on the processing

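The number of members higher in mdx_IL5Tg against IL5Tg, 6 in the edgeR fit, was 12 by DESeq2, 14 when voom used quality weights, 2 on library totals only, 10 without IL5Tg S7 and mdx S5 together, and 2 to 11 with 1 library left out; the number lower, 0, was 1 with voom quality weights and 0 with each library left out. In mdx_IL5Tg against mdx the 13 higher were 8 with library totals only and 10 to 14 with 1 library left out, and the 7 lower were 3 to 6 with 1 library left out. In mdx against IL5Tg the counts of 7 and 8 stayed within 1.5 times in every setting. The share of all tested genes called was counted in the main fit only. A change in the number of members called between settings can thus not be told apart from a general change in calls. Of the single calls, 1 of 6 in mdx_IL5Tg against IL5Tg (Ctss), 11 of 20 in mdx_IL5Tg against mdx and 12 of 15 in mdx against IL5Tg held in all 18 settings, and none of the values past the threshold changed sign. The cause of these shifts was not tested. No paired analysis was possible because the columns carry S numbers and not the replicate numbers of the labels. With 3 libraries a group, small changes and genes of few counts, such as Atp6v0d2 in IL5Tg, are estimated with little precision.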
